A study of Homo sapiens with 12 samples.

Results

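The replication-type histone genes encode the linker histone H1 and the core histones H2A, H2B, H3 and H4, and lie in clusters. They were taken as all array probes whose platform gene symbol began with H2AC, H2BC, H3C or H4C and a number, or with H1- and a number from 0 to 6. This gave 79 probes for 69 genes, among 48104 probes in all. A probe with 1 gene symbol was required for a test, which 78 met, while the remaining probe carried both H3C11 and H3C6 and was not tested. Of the 78 probes, 59 named genes on chromosome 6, 18 named genes on chromosome 1 and 1 named a gene on chromosome 12. A probe was tested when at least 3 of the 12 arrays gave it a detection p-value under 0.05. That left 47 probes for 41 genes, within 18238 tested probes of all genes, and 26 of the 47 were detected on all 12 arrays. The tested probes were 4 of 6 for H1, 12 of 19 for H2A, 13 of 23 for H2B, 10 of 15 for H3 and 8 of 15 for H4.

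Replication-dependent histone mRNAs are made mainly in S phase, when NPAT and cyclin E with CDK2 drive their transcription. They end in a conserved stem-loop bound by SLBP instead of a poly(A) tail, and are degraded when DNA synthesis stops. Some of these genes also give polyadenylated transcripts, among them H1-2, H2AC6, H2BC4, H2BC5, H2BC12 and H2BC21, which have been described in cells that leave the cycle. Labelling by the MessageAmp kit starts from oligo(dT), so that transcripts with a poly(A) tail are the ones it is built to copy.

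The cells were HCC827, a line of non-small cell lung cancer with an activating mutation of EGFR. The 4 groups of 3 arrays were HCC827 alone with DMSO, HCC827 alone with 0.5 µM gefitinib, HCC827 in co-culture, and HCC827 in co-culture with 0.5 µM gefitinib. Gefitinib inhibits the EGFR kinase. Per the labels' protocols the drug was added after 24 h, and the cells were lysed for RNA after another 48 h. The partner cells were the lung fibroblast line MRC-5, separated by an insert with 1 µm pores. The co-culture ran in EMEM, while RPMI was the routine medium. The medium of the monoculture arms in the last 48 h, and whether drug was present then, are not given in the sources used here. All co-culture titles end in WH, which no monoculture title does, and its meaning is not given. In the comparisons between cultures and in the interaction, an effect of the fibroblasts can therefore not be told apart from one of medium or of what WH marks. Nothing in the labels says that the 3 arrays of a group came from separate cultures, so p-values measure the spread between these arrays, which may be technical.

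Between 43.4% and 46.5% of probes were detected per array, and median scanner intensities were 99.1 to 103 in monoculture and 106 to 110 in co-culture. Arrays of a group correlated at r between 0.985 and 0.990, and arrays of different groups between 0.954 and 0.986. All 7 epithelial markers, including EPCAM and KRT19, were detected on every array. Of 15 fibroblast markers, 8 were tested, and COL3A1, FAP, THY1, PDGFRA, PDGFRB, POSTN and TWIST1 had no probe that met the conditions for a test. The summed fibroblast marker level (log2) was 11.1 on each DMSO array, 12.2 to 12.4 in gefitinib monoculture, 11.3 to 11.5 in co-culture and 11.2 to 11.5 in gefitinib co-culture. Its highest range was thus in a group grown without fibroblasts.

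Promoters are shown for the 3 genes whose probes fell most and the 3 whose probes rose most with gefitinib in monoculture, among those with a window in the RefSeq table. Each sequence is the 250 bases before the RefSeq start of the gene (GRCh38.p14), written 5′ to 3′ on the gene's strand. Capitals mark matches on either strand to CCAAT, the NF-Y box, to TATAAA, the TATA box, and to ATTTGCAT, the octamer of H2B promoters that POU2F1 (OCT1) binds. Overlapping matches are capitalised together. The first 3 genes fell and the last 3 rose.
H2BC9, chr6:26251364-26251613, plus strand: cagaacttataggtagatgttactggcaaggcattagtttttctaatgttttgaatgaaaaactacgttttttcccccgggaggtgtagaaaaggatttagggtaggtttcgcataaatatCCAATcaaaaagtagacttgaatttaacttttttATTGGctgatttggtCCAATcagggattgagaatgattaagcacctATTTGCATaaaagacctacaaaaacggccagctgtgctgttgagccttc
H3C8, chr6:26271414-26271663, minus strand: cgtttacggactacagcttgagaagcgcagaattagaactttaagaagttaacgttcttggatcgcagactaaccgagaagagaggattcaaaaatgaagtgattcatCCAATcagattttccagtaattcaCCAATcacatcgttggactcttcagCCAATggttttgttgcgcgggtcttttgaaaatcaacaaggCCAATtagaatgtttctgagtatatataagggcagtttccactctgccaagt
H2BC11, chr6:27132796-27133045, minus strand: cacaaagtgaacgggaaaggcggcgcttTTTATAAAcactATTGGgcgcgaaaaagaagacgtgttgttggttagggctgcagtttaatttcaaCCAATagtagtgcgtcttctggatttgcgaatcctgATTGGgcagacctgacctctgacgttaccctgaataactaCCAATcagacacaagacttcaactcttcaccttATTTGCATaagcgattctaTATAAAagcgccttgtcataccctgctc
H2AC25, chr1:228457874-228458123, minus strand: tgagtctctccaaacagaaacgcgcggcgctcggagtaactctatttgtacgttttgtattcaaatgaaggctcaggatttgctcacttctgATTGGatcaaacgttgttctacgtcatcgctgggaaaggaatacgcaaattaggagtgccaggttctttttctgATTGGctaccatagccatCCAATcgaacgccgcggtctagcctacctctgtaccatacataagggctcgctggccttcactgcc
H2AC6, chr6:26123922-26124171, plus strand: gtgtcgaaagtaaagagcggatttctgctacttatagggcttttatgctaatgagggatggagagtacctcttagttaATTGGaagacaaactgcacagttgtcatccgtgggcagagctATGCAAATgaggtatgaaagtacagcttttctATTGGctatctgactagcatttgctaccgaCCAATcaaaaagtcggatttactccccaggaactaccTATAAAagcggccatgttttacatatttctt
H2BC21, chr1:149886683-149886932, minus strand: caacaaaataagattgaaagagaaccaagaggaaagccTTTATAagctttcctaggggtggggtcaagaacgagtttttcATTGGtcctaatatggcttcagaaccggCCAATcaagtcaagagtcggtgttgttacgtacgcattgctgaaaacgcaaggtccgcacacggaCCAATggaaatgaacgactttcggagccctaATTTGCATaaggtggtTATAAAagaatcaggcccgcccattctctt

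All 6 windows held CCAAT or its reverse, ATTGG. Of the 69 genes, 64 had a window. CCAAT was found in 54 of the 64 (84.4%), against 32% of 35116 promoters of the same length, and was in every H1, H2A, H2B and H3 window but in 3 of 13 for H4. The octamer was in 26 of 64 windows (40.6%, against 1.63% of all), 14 of 18 for H2B, 11 of 16 for H2A and 1 of 11 for H3. The H3 match was that of H3C4, whose window is the same stretch as that of H2AC7. H2A and H2B genes that lie back to back share most of their window, so the same match can count for both classes. TATAAA was in 42 of 64 (65.6%, against 10.7%). By response to gefitinib in monoculture, CCAAT was in 12 of 16 genes with a probe that rose, in 4 of 4 that fell and in 17 of 19 that were tested and did not pass. The genes that rose without it were all of H4 (H4C5, H4C8, H4C14 and H4C15), and H4C3, which fell, had no window. The octamer was in 5 of 16 that rose, 2 of 4 that fell and 10 of 19 that were tested and did not pass. These letters were therefore present on both sides of the response. Matches in a shared window also count under different responses, so these groups are not independent. H2AC6, H2BC21 and H2BC8 rose and H2BC11 fell, while H2BC4, H2AC20, H2AC8 and H2AC11, which share their windows, did not pass. A match is a description of the sequence and does not show binding.

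Gefitinib in monoculture moved the histone probes in both directions, and more rose than fell. With DMSO as the reference, 19 of the 47 probes rose and 5 fell (limma, Benjamini-Hochberg adjusted p under 0.05 over all 18238 probes). In the same comparison 15.1% of all tested probes rose and 13.3% fell, 28.4% in all. The median log2 change of the histone probes was 0.33, against 0.01 for all probes. H2AC25, H2AC6 and H2BC21 rose most, and H2BC9, H3C8 and H2BC11 fell most. By class, 6 of 12 H2A probes rose and 0 fell, 7 of 13 H2B probes rose and 2 fell, 1 of 10 H3 probes rose and 2 fell, 4 of 8 H4 probes rose and 1 fell, and 1 of 4 H1 probes rose. The filter keeps a probe that is detected only where it is high, so all 78 were also tested without it: 17 rose and 5 fell, against 16.1% of 30113 probes called in either direction, and 0 of the undetected probes was called. The same test gave 0 calls for gefitinib in co-culture (0.598% of all probes), 0 for co-culture without drug (1.59%), 5 higher and 22 lower for co-culture under gefitinib (18.6%) and 2 higher and 12 lower for the interaction (8.26%). In RNA of a whole culture, a change in the share of cells that express a gene and a change per cell cannot be told apart.

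**Figure D1:**
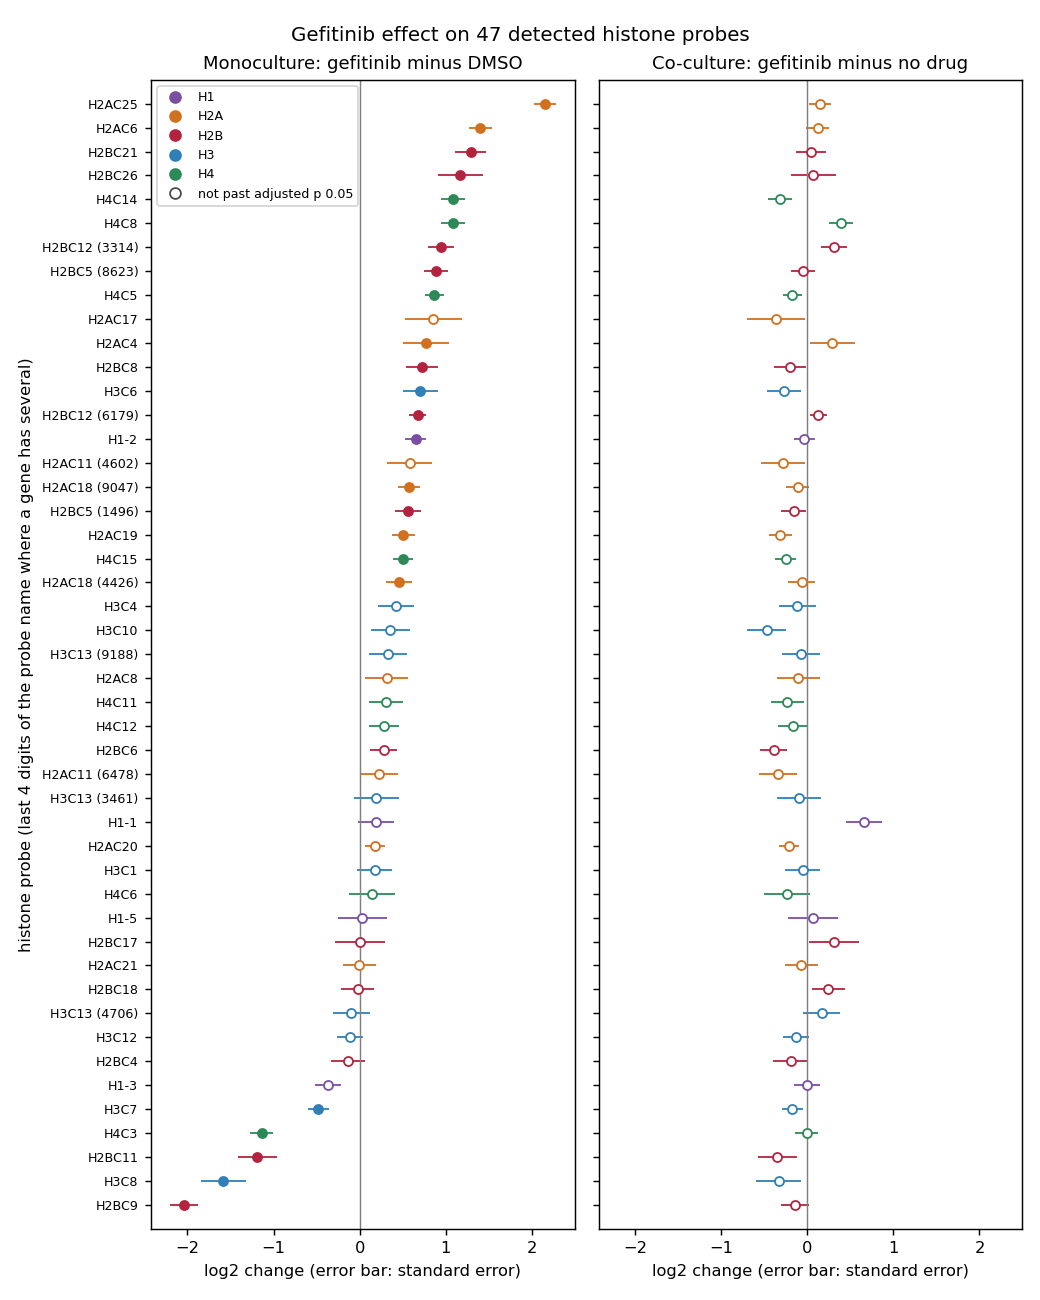
Log2 change with gefitinib (x axis) of each of the 47 tested histone probes (y axis, ordered by the change in monoculture), in monoculture on the left and in co-culture on the right. Points are estimates, bars are standard errors (n = 3 arrays per group), colours are histone classes and filled points have an adjusted p under 0.05: 24 are filled on the left and 0 on the right.

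Levels below are normalized log2 intensities, given for replicates 1, 2 and 3 of each group and compared only within a probe. Changes are log2 differences of group means with their standard errors from the model. Among the H2A genes, H2AC25, which shares a promoter region on chromosome 1 with H2BC26, had levels of 8.98, 9.27 and 9.22 with DMSO, 11.27, 11.43 and 11.21 with gefitinib, 8.76, 9.00 and 8.59 in co-culture, and 8.84, 8.98 and 8.97 in co-culture with gefitinib. The 3 gefitinib monoculture arrays stood above the other 9. The change with gefitinib in monoculture was 2.15 ± 0.126 (adjusted p = 3.5e-07). H2AC6, a chromosome 6 gene with described polyadenylated transcripts, had 7.81, 7.72 and 7.71 with DMSO, 9.21, 9.25 and 8.98 with gefitinib, 7.69, 7.87 and 7.50 in co-culture, and 7.57, 7.85 and 8.00 in co-culture with gefitinib, a monoculture change of 1.40 ± 0.135 (adjusted p = 1.46e-05). Again the gefitinib monoculture arrays were the 3 highest.

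H2AC18 and H2AC19 are near-identical neighbouring copies on chromosome 1, and their transcripts may not be told apart by these probes. Probe ILMN_1659047 of H2AC18 read 9.52, 9.70 and 9.62 with DMSO, 10.18, 10.23 and 10.14 with gefitinib, 9.40, 9.66 and 9.19 in co-culture, and 9.25, 9.50 and 9.15 in co-culture with gefitinib, and rose by 0.57 ± 0.133 in monoculture (adjusted p = 0.00706). Its other probe, ILMN_2144426, read 9.14, 8.98 and 9.42 with DMSO, 9.78, 9.80 and 9.32 with gefitinib, 8.43, 8.66 and 8.55 in co-culture, and 8.60, 8.49 and 8.34 in co-culture with gefitinib, a change of 0.46 ± 0.155 (adjusted p = 0.0461). H2AC19 read 9.28, 9.26 and 9.20 with DMSO, 9.61, 9.94 and 9.71 with gefitinib, 9.32, 9.41 and 9.18 in co-culture, and 8.87, 9.27 and 8.83 in co-culture with gefitinib, and rose by 0.51 ± 0.135 (adjusted p = 0.0146). The DMSO and gefitinib arrays overlapped for ILMN_2144426 and did not for the other probes of this pair. H2AC4, a dim probe, read 4.62, 4.44 and 4.74 with DMSO, 5.61, 5.33 and 5.18 with gefitinib, 4.76, 5.11 and 4.32 in co-culture, and 4.38, 5.40 and 5.29 in co-culture with gefitinib, a change of 0.77 ± 0.264 (adjusted p = 0.0479). The calls of H2AC4 and ILMN_2144426 sat near the threshold. The call for H2AC4 ended when any of the 6 monoculture arrays was left out, or replicate 1 of co-culture, or replicate 3 of gefitinib co-culture (0.65 to 0.87), and that for ILMN_2144426 without any 1 array except DMSO replicate 3 and gefitinib monoculture replicate 3 (0.36 to 0.46). H2AC19 was at 0.42 without gefitinib monoculture replicate 2, which also ended its call, and under median scaling, used instead of quantile normalization, none of H2AC4, H2AC19 and the H2AC18 probes passed. H2AC4 and ILMN_2144426 also lost their calls without the filter on dim probes and with a replicate block, and ILMN_2144426 with only the arrays compared.

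Among the H2B genes, H2BC21 on chromosome 1 had levels of 7.53, 7.05 and 7.45 with DMSO, 8.48, 8.71 and 8.72 with gefitinib, 6.97, 6.74 and 7.29 in co-culture, and 7.03, 6.82 and 7.27 in co-culture with gefitinib, and rose by 1.29 ± 0.175 in monoculture (adjusted p = 2.04e-04). H2BC26, the partner of H2AC25, had 5.52, 5.18 and 5.18 with DMSO, 6.27, 6.51 and 6.60 with gefitinib, 5.10, 4.33 and 4.47 in co-culture, and 5.30, 4.54 and 4.27 in co-culture with gefitinib, and rose by 1.17 ± 0.26 (adjusted p = 0.00553). For both genes the gefitinib monoculture arrays were the highest, and H2BC26 was detected on 1 of 3 arrays in each co-culture group. H2BC12, another gene with described polyadenylated transcripts, has probes ILMN_1813314 and ILMN_1796179. The former read 8.93, 9.23 and 9.10 with DMSO, 9.95, 10.19 and 9.96 with gefitinib, 8.54, 8.82 and 8.70 in co-culture, and 9.11, 9.22 and 8.66 in co-culture with gefitinib, a rise of 0.95 ± 0.154 (adjusted p = 7.14e-04). The latter read 12.01, 12.02 and 12.02 with DMSO, 12.71, 12.67 and 12.69 with gefitinib, 11.88, 11.70 and 11.55 in co-culture, and 11.83, 11.90 and 11.79 in co-culture with gefitinib, a rise of 0.67 ± 0.098 (adjusted p = 3.33e-04). Both probes of H2BC12 thus rose.

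H2BC5 was also read by a pair of probes that rose together. ILMN_1758623 read 6.30, 6.40 and 6.37 with DMSO, 7.40, 7.37 and 6.96 with gefitinib, 6.32, 6.49 and 6.29 in co-culture, and 6.51, 6.24 and 6.19 in co-culture with gefitinib, a rise of 0.89 ± 0.136 (adjusted p = 4.74e-04). ILMN_1651496 read 7.62, 7.47 and 7.58 with DMSO, 8.35, 8.04 and 7.98 with gefitinib, 7.67, 7.27 and 7.11 in co-culture, and 7.18, 7.30 and 7.10 in co-culture with gefitinib, a rise of 0.57 ± 0.149 (adjusted p = 0.0141). H2BC8 read 5.98, 6.61 and 6.53 with DMSO, 7.18, 7.21 and 6.91 with gefitinib, 6.41, 5.76 and 5.99 in co-culture, and 5.80, 5.84 and 5.91 in co-culture with gefitinib, a rise of 0.72 ± 0.19 (adjusted p = 0.0138). None of these 3 probes overlapped between DMSO and gefitinib. Leaving out DMSO replicate 2 or gefitinib monoculture replicate 1 ended the call of ILMN_1651496 (0.45 to 0.52), and leaving out DMSO replicate 1 ended that of H2BC8 (0.53).

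H2BC9 and H2BC11 went the other way. H2BC9 had levels of 7.99, 8.04 and 8.13 with DMSO, 6.09, 6.22 and 5.73 with gefitinib, 7.95, 7.90 and 7.45 in co-culture, and 7.57, 7.81 and 7.48 in co-culture with gefitinib, and changed by -2.04 ± 0.163 in monoculture (adjusted p = 3.41e-06). H2BC11 had 6.19, 6.41 and 6.22 with DMSO, 5.15, 5.52 and 4.58 with gefitinib, 6.06, 6.29 and 6.31 in co-culture, and 5.45, 6.10 and 6.05 in co-culture with gefitinib, a change of -1.19 ± 0.227 (adjusted p = 0.00211). The gefitinib monoculture arrays of H2BC9 were the 3 lowest of 12, and those of H2BC11 lay below all DMSO arrays.

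Of the H3 genes, H3C8 and H3C7 fell and H3C6 rose. H3C8 had levels of 6.42, 6.14 and 6.19 with DMSO, 4.76, 5.01 and 4.23 with gefitinib, 6.76, 6.81 and 6.27 in co-culture, and 5.89, 6.85 and 6.12 in co-culture with gefitinib, a change of -1.58 ± 0.261 (adjusted p = 7.99e-04). It was detected on 2 of 3 gefitinib monoculture arrays, and those 3 arrays were the lowest. H3C7 had 6.45, 6.62 and 6.24 with DMSO, 6.06, 5.85 and 5.96 with gefitinib, 6.86, 6.73 and 6.81 in co-culture, and 6.73, 6.68 and 6.48 in co-culture with gefitinib, a change of -0.48 ± 0.119 (adjusted p = 0.0102). H3C6 had 4.67, 4.43 and 4.91 with DMSO, 5.23, 5.36 and 5.54 with gefitinib, 5.50, 5.62 and 5.58 in co-culture, and 4.85, 5.76 and 5.29 in co-culture with gefitinib, a rise of 0.70 ± 0.201 (adjusted p = 0.0213). H3C6 was thus lower with DMSO than in the other groups, apart from 1 gefitinib co-culture array inside the DMSO range. Its call ended without DMSO replicate 1 or 2, or without gefitinib monoculture replicate 2 or 3 (0.58 to 0.71).

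Of the H4 genes, H4C3 fell and H4C14, H4C15, H4C8 and H4C5 rose. H4C3 had levels of 13.003, 13.40 and 13.18 with DMSO, 11.85, 12.17 and 12.14 with gefitinib, 13.02, 13.05 and 13.04 in co-culture, and 12.87, 12.999 and 13.22 in co-culture with gefitinib, a change of -1.14 ± 0.135 (adjusted p = 7.2e-05). H4C8 had 5.87, 6.20 and 6.05 with DMSO, 7.16, 7.03 and 7.18 with gefitinib, 5.74, 5.89 and 5.49 in co-culture, and 6.10, 5.90 and 6.29 in co-culture with gefitinib, a rise of 1.08 ± 0.139 (adjusted p = 1.31e-04). In each case the gefitinib monoculture arrays lay outside the range of the other 9. H4C14 and H4C15 are near-identical copies on chromosome 1 that the probes may not separate. H4C14 had 7.09, 7.38 and 7.31 with DMSO, 8.41, 8.39 and 8.23 with gefitinib, 7.41, 7.60 and 7.50 in co-culture, and 7.23, 7.43 and 6.90 in co-culture with gefitinib, a rise of 1.08 ± 0.139 (adjusted p = 1.32e-04). H4C15 had 7.04, 6.85 and 6.98 with DMSO, 7.40, 7.40 and 7.59 with gefitinib, 6.78, 6.94 and 7.03 in co-culture, and 6.78, 6.75 and 6.46 in co-culture with gefitinib, a rise of 0.51 ± 0.118 (adjusted p = 0.00715). H4C5 had 4.23, 4.39 and 4.37 with DMSO, 5.22, 5.14 and 5.24 with gefitinib, 4.59, 4.81 and 4.53 in co-culture, and 4.33, 4.61 and 4.48 in co-culture with gefitinib. It was not detected on any DMSO or gefitinib co-culture array, so the DMSO level is only a bound, and it was at least 1.71-fold higher with gefitinib (adjusted p = 1.15e-04). That bound replaces each DMSO value by the lowest value of any detected probe on its array where that is higher.

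H1-2, a somatic linker histone with described polyadenylated transcripts, had levels of 9.61, 9.60 and 9.63 with DMSO, 10.29, 10.32 and 10.18 with gefitinib, 9.80, 9.48 and 9.44 in co-culture, and 9.56, 9.70 and 9.35 in co-culture with gefitinib. Its rise of 0.65 ± 0.122 (adjusted p = 0.00184) was the only H1 call. The 3 gefitinib monoculture arrays were the highest of the 12.

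**Figure D2:**
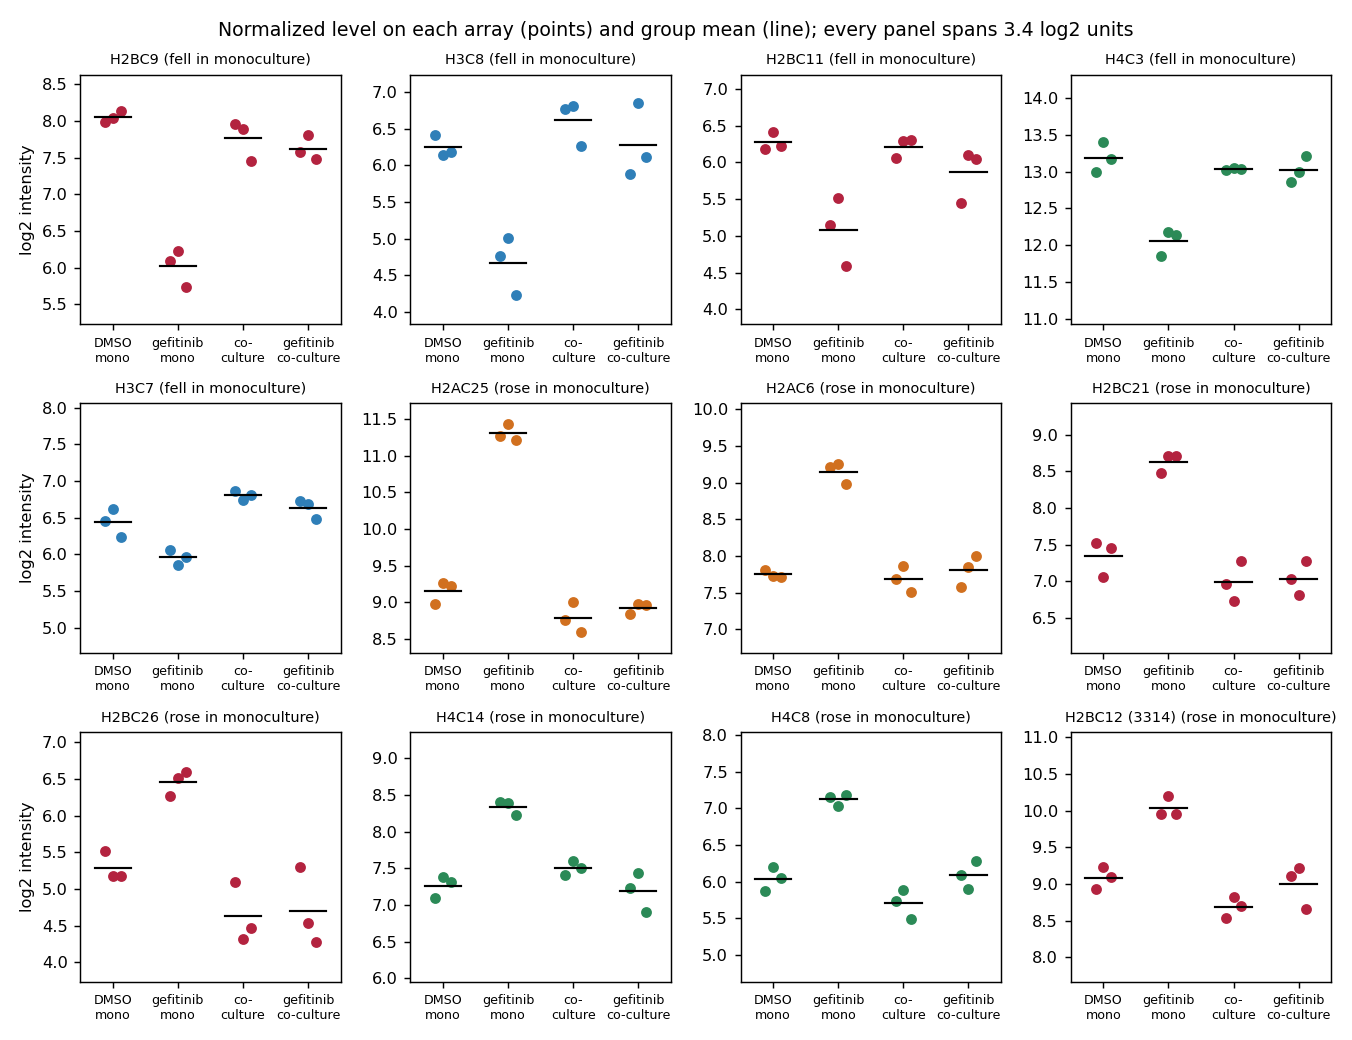
Normalized level (log2 intensity, y axis) on each array for the 5 histone probes that fell and the 7 that rose most with gefitinib in monoculture, by group. Points are arrays, lines are means of 3 arrays and every panel spans the same number of log2 units: only the gefitinib monoculture group stands apart in most panels, for example between 11.21 and 11.43 for H2AC25.

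Members with described polyadenylated transcripts made up 7 of the 19 rises: 7 of their 8 tested probes rose and 0 fell, with a median of 0.78. Their list came from textbook knowledge, but was set with earlier results of these data known. H2BC4 was the exception at -0.13. Of the other 39 probes, 12 rose and 5 fell, with a median of 0.29. All 5 probes that fell were of chromosome 6 genes, where 11 of 33 rose, while 8 of 14 probes of chromosome 1 genes rose and 0 fell. The difference between these subsets was not tested. Of all tested probes, 15.1% rose and 13.3% fell. These counts are of probes and not of separate genes. H2BC5 and H2BC12 each gave more than 1 of the rises on the polyadenylation list. The chromosome 1 rises include H2AC18, H2AC19, H4C14 and H4C15, near-identical copies whose probes may not be told apart. Several H2A and H2B genes face each other from a shared promoter region. RefSeq gave 11 such pairs with starts 194 to 248 bases apart, and both genes were tested in 6 of them. H2AC25 and H2BC26 both rose. In 3 pairs 1 gene rose and the other did not pass: H2BC21 at 1.29 beside H2AC20 at 0.18, H2AC6 at 1.40 beside H2BC4 at -0.13, and H2BC8 at 0.72 beside H2AC8 at 0.31. H2BC11 fell by 1.19 beside H2AC11, whose probes were at 0.22 and 0.58 without passing, and neither H2AC17 nor H2BC17 passed.

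The size of a change depended on the processing, most of all for dim probes. In the authors' deposited table, which was tested with the same model, H3C8 changed by -0.61, H2BC11 by -0.46, H2BC9 by -1.23, H2BC26 by 0.50, H4C8 by 0.58 and ILMN_1758623 of H2BC5 by 0.50. Brighter probes moved less, with H4C3 at -1.12 and H2AC25 at 2.01. The median of the 47 probes was 0.16 there, against 0.33 from the background-corrected scanner values, while 20 rose and 5 fell. With the scanner values left without background correction, the median was also 0.16, and 20 rose and 5 fell.

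**Figure D3:**
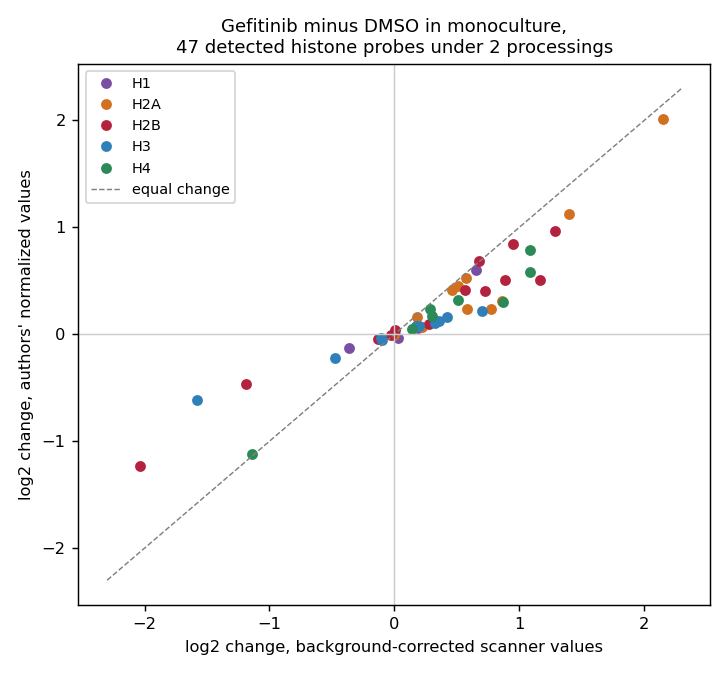
Log2 change with gefitinib in monoculture for the 47 tested histone probes, from background-corrected scanner values (x axis) and from the authors' normalized values (y axis). Points are probes coloured by class and the dashed line marks equal change: H4C3 (-1.14 and -1.12) lies on it, while H3C8 (-1.58 and -0.61) lies off it.

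In co-culture no histone probe passed the test for gefitinib. With co-culture without drug as the reference, 0 of 47 rose and 0 fell, and 5 were at an unadjusted p under 0.05, while 1.16% of all tested probes were called in limma, 0.477% up and 0.685% down. The count was also 0 under each other processing tried, except that 1 probe rose when gefitinib co-culture replicate 3 was left out. Changes ranged from -0.47 for H3C10 to 0.66 for H1-1, with a median of -0.11 against 0.00 for all probes. H2AC25, H2AC6 and H2BC21, given above for each array, overlapped between these groups, as did H2BC9, H3C8, H2BC11, H4C3 and H4C14. The 2 groups did not overlap for 6 of 47 probes, against 14.7% of all probes, and in monoculture they did not overlap for 30 of 47, against 44%. The 6 were H3C7, H4C8, H4C15, H2BC6, H3C10 and ILMN_2184602 of H2AC11. With gefitinib in co-culture H3C7 was lower and H4C8 higher, the same directions as in monoculture. The others were lower in co-culture with gefitinib, while their monoculture estimates were positive. A change too small for 3 arrays per group to show cannot be seen in these counts.

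The gefitinib effect differed between the culture conditions for 18 of the 47 probes by the interaction term, which is the effect in co-culture minus that in monoculture. It was higher in co-culture for 3 and lower for 15, against 7.2% and 8.24% of all probes. The difference was 1.89 ± 0.23 for H2BC9 (adjusted p = 2.76e-04), 1.13 ± 0.19 for H4C3 (adjusted p = 0.00223) and 1.25 ± 0.37 for H3C8 (adjusted p = 0.0411). It was -2.0 for H2AC25, -1.40 for H4C14, -1.28 for H2AC6 and -1.25 for H2BC21. The call of H3C8 ended without any 1 array other than gefitinib monoculture replicate 2 and gefitinib co-culture replicate 1 (0.97 to 1.35). Its own call in monoculture was kept in every such case. The 3 probes with a higher effect in co-culture were thus among the 5 that fell in monoculture, and 10 of the 18 calls held under every alternative.

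Without drug, 2 histone probes differed between co-culture and DMSO monoculture. H3C6 was higher in co-culture by 0.90 ± 0.20 (adjusted p = 0.0375), and probe ILMN_2144426 of H2AC18 changed by -0.63 ± 0.15 (adjusted p = 0.0497). These were the only calls among the 47, against 1.8% of all probes that were higher and 1.57% that were lower, 3.37% in all, and the groups did not overlap for 15 of 47, against 24.2%. The other H2AC18 probe was at -0.20 without passing. Neither call was stable: that of H3C6 ended without any 1 array other than gefitinib monoculture replicate 3 and replicates 1 and 2 of gefitinib co-culture (0.78 to 1.01), and that of ILMN_2144426 without any 1 array other than gefitinib monoculture replicate 3 (-0.74 to -0.52). Over the other processings the count ran from 0 without the filter on dim probes to 5, of which 4 were lower, in the authors' deposited table.

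Under gefitinib, histone probes in co-culture stood mostly below those in monoculture, with the genes that had fallen in monoculture above. With gefitinib monoculture as the reference, 5 probes were higher and 23 lower of 47, against 14.3% and 18.7% of all probes and 33% in all, and the median was -0.40 against -0.03. This comparison shares its reference arrays with the monoculture comparison above, so its values are given for themselves. H2AC25 changed by -2.38 ± 0.126 (adjusted p = 2.08e-07), H2BC26 by -1.76, H2BC21 by -1.59, H2AC6 by -1.34 and H2BC8 by -1.25. The groups did not overlap for any of these 5 probes. H2AC18 was at -0.88 and -1.16, H4C14 at -1.16, H2BC12 at -1.04 and -0.85, H4C8 at -1.03, and both H2BC5 probes at -0.93. H4C15, H2AC19 and H1-2 were at -0.80, -0.76 and -0.73, and H4C5, not detected in gefitinib co-culture, was at least 1.61-fold lower (adjusted p = 3.68e-04). The 5 higher probes were H3C8 (1.62 ± 0.261, adjusted p = 5.84e-04), H2BC9 (1.60 ± 0.163, adjusted p = 2.06e-05), H4C3 (0.97 ± 0.135, adjusted p = 2.03e-04), H2BC11 (0.78 ± 0.227, adjusted p = 0.02) and H3C7 (0.67 ± 0.119, adjusted p = 0.00111). H2BC11 alone among these 5 had groups that overlapped. Over all 47 probes the groups did not overlap for 28, against 44.5%.

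A further 6 probes passed in this comparison and in no other. H2AC17 read 4.81, 5.69 and 4.54 with DMSO, 5.70, 6.46 and 5.46 with gefitinib, 5.52, 4.80 and 4.92 in co-culture, and 5.05, 4.39 and 4.70 in co-culture with gefitinib. Its change between the gefitinib groups was -1.16 ± 0.334 (adjusted p = 0.0197), and its monoculture change of 0.86 ± 0.334 did not pass (adjusted p = 0.0791). The lone array at 6.46 was the highest of its 12. H3C4 read 5.15, 5.40 and 5.22 with DMSO, 5.45, 5.79 and 5.81 with gefitinib, 4.76, 4.59 and 5.55 in co-culture, and 4.78, 4.98 and 4.79 in co-culture with gefitinib, a change of -0.83 ± 0.213 (adjusted p = 0.0103). H3C10 read 5.80, 5.03 and 4.95 with DMSO, 5.41, 5.86 and 5.58 with gefitinib, 5.46, 5.50 and 5.30 in co-culture, and 4.97, 4.63 and 5.24 in co-culture with gefitinib, a change of -0.67 ± 0.226 (adjusted p = 0.0399). Both are core H3 genes on chromosome 6. H4C12 read 8.50, 8.30 and 8.37 with DMSO, 8.80, 8.63 and 8.60 with gefitinib, 8.25, 8.64 and 7.89 in co-culture, and 8.17, 8.24 and 7.87 in co-culture with gefitinib, a change of -0.59 ± 0.173 (adjusted p = 0.0219). Probe ILMN_1686478 of H2AC11 read 4.75, 5.51 and 5.17 with DMSO, 5.38, 5.31 and 5.40 with gefitinib, 4.80, 4.70 and 5.45 in co-culture, and 4.65, 4.46 and 4.81 in co-culture with gefitinib, a change of -0.72 ± 0.215 (adjusted p = 0.023). H2AC20 read 9.18, 9.08 and 9.04 with DMSO, 9.36, 9.26 and 9.23 with gefitinib, 9.16, 9.24 and 8.85 in co-culture, and 8.85, 9.00 and 8.78 in co-culture with gefitinib, a change of -0.40 ± 0.117 (adjusted p = 0.0197). Only H3C4 of these 6 kept its call whichever array was left out.

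Arrays whose omission ended such a call were gefitinib monoculture replicate 2 and gefitinib co-culture replicates 2 and 3 for H2AC17 (-1.15 to -0.86), and gefitinib monoculture replicate 1 and gefitinib co-culture replicate 3 for H4C12 (-0.52 to -0.47). For ILMN_1686478 they were gefitinib monoculture replicates 1 and 3 and gefitinib co-culture replicates 1 and 2 (-0.73 to -0.63), and for H2AC20 gefitinib monoculture replicate 1 and gefitinib co-culture replicates 1 and 3 (-0.39 to -0.36). H3C10 lost its call without replicate 2 or 3 of gefitinib monoculture, or replicate 1 or 2 of either co-culture group (-0.69 to -0.51). H2BC11 lost its call without gefitinib monoculture replicate 3 or gefitinib co-culture replicate 2 or 3 (0.53 to 0.69). Median scaling also ended the calls of H4C12, H2AC20 and H3C10, dropping the filter on dim probes or adding a replicate block that of H3C10, and using only the arrays compared that of H2BC11. The other 22 calls of this comparison held under every alternative.

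The tested probes called in no comparison were those of H1-1, H1-3, H1-5, H2AC8, H2AC21, H2BC4, H2BC6, H2BC17, H2BC18, H3C1, H3C12, H4C6 and H4C11, the 3 of H3C13, and ILMN_2184602 of H2AC11, 17 in all. Their changes with gefitinib in monoculture ran from -0.36 for H1-3 to 0.58 for ILMN_2184602. H3C13 may share signal with its near-identical copies H3C14 and H3C15. No tested probe was held for H1-4, H1-6, H2AC1, H2AC7, H2AC12, H2AC13, H2AC14, H2AC15, H2AC16, H2BC1, H2BC3, H2BC7, H2BC10, H2BC13, H2BC14, H2BC15, H3C2, H3C3, H3C11, H3C14, H3C15, H4C1, H4C2, H4C4, H4C7, H4C9, H4C13 and H4C16. Of the 31 probes that were not tested, 20 were detected on 0 arrays, 4 on 1 and 7 on 2.

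Among genes that act with histone synthesis, those called with gefitinib in monoculture fell. Of all tested probes, 15.1% rose and 13.3% fell in this comparison, 28.4% in all. All 12 replication genes of S phase fell, with a median of -1.22: CDC45, a helicase subunit, was at -2.27 ± 0.11, RRM2, a ribonucleotide reductase subunit, at -2.11 ± 0.14, GINS2, another helicase subunit, at -2.0 ± 0.10, and TYMS, thymidylate synthase, at -1.75 ± 0.099. Of 16 tested genes of 20 listed for histone mRNA synthesis and 3′ end processing, 0 rose and 5 fell, with a median of -0.33. The share of this list called in either direction was near that of all probes. CDK2 was at -0.82 ± 0.13, SLBP, the stem-loop binding protein, at -0.77 ± 0.093, LSM10, a U7 snRNP protein, at -0.77 ± 0.13, and ERI1, a nuclease of histone mRNA ends, at -0.68. The fifth was CSTF2, at -0.60. NPAT was at -0.41 without passing. The list of histone chaperones gave 0 rises and 7 falls of 18, with a median of -0.20, among them HJURP, the CENPA chaperone, at -2.35, ASF1B at -2.10 and CHAF1B, a subunit of CAF-1, at -1.42. FAM111A, a protease of the replication fork and not a chaperone, is also on that list and was at -1.17.

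Replacement histones, which are made outside S phase as well, gave 2 rises and 5 falls of 10 tested. Of all tested probes, 15.1% rose and 13.3% fell with gefitinib in monoculture. CENPA, the centromeric H3, changed by -2.38 ± 0.11, H2AX by -1.66 ± 0.20 and H2AZ1 by -0.92 ± 0.084, while H3-3B, which encodes H3.3, rose by 0.76 ± 0.13. In gefitinib monoculture the fibroblast markers moved too, with 5 rises and 0 falls of 8 tested. The epithelial markers gave 1 rise and 3 falls of 7 tested. The part of either marker list in the histone changes was not tested, although the group was grown without fibroblasts per the labels. In co-culture, gefitinib gave 0 calls in limma in each of these 4 lists of histone-related genes, with 2, 1, 0 and 1 genes at an unadjusted p under 0.05 in the order that follows, and medians of 0.11 for S phase replication, 0.04 for chaperones, 0.02 for histone mRNA synthesis and 0.07 for replacement histones. Only 1.16% of all tested probes were called there, so most lists of this size would give 0 calls. Between co-culture and monoculture under gefitinib, 11 of the 12 replication genes were higher in co-culture and 0 lower, against 14.3% and 18.7% of all probes. Their median was 1.25, beside a median of -0.40 for the histone probes. The replication genes thus lay on the side of H2BC9, H3C8, H2BC11, H4C3 and H3C7, and opposite to most histone probes, in both of these comparisons, which share the gefitinib monoculture arrays.

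**Figure D4:**
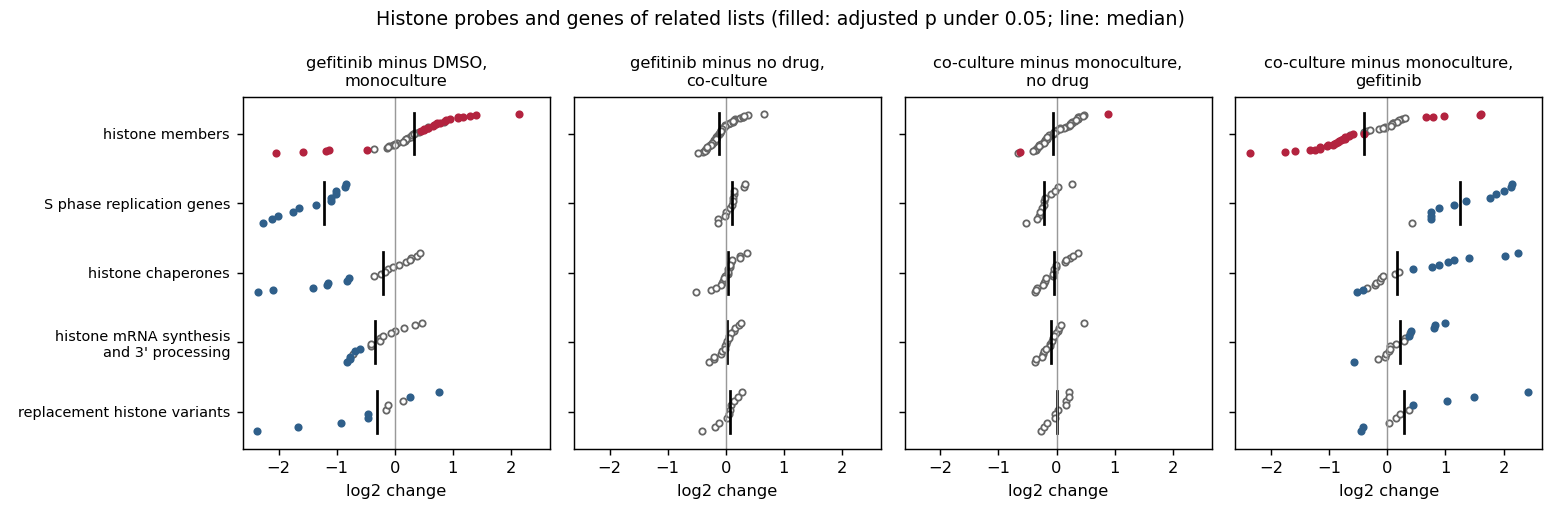
Log2 change (x axis) of the 47 histone probes and of 4 lists of related genes (y axis) in 4 comparisons. Each point is a probe or gene, filled where the adjusted p was under 0.05, and lines are medians: with gefitinib in monoculture the S phase replication genes lie around -1.22 and the histone probes around 0.33.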

How the data were processed

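HCC827 RNA was measured on 12 Illumina bead arrays, each placed in its group by its title. The authors' scanner table gives each probe's intensity on a linear scale, not background-subtracted as its values show, with a detection p-value beside it, per the file headers. A second deposited table holds the authors' own normalized intensity, also linear; how it was made was not stated in the sources used here. Per the labels' protocols, labelling used the Ambion MessageAmp kit. Depth has no meaning on arrays, and their number limits the precision.

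In the scanner table, the order of the 6 monoculture columns was that of the probe names (r of at least 0.999883 with the authors' values), and that of the 6 co-culture columns was not (r of at most 0.00105). The latter were named by matching their 6 values to the authors' normalized table, and all 48106 matches (100%) were mutual. The co-culture values thus rest on that table for their names. Gene symbols came from the platform annotation: 30113 probes had 1 symbol, 8 several and 17983 none here.

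R 4.3.3 and limma 3.58.1 were used: neqc (offset 16, quantile normalization, log2 scale of the deposited intensities), then 1 model with a mean per group over the 12 arrays, moderated variances, two-sided tests and Benjamini-Hochberg adjustment over 18238 probes. The 5 comparisons were the gefitinib effect in each culture, the co-culture effect with and without drug, and the interaction. The test was tried on data simulated for the monoculture gefitinib comparison (18238 probes, 200 changed), and found 19.4% of changes of 0.5 in log2, 71.6% of changes of 1 and 97.0% of changes of 2. It also called 12 unchanged probes. In the data 28.4% of probes were called, a far larger share than was changed in the simulation, so these rates need not carry over. Values are given for each of the 30 histone probes called in at least 1 comparison, and the others by counts, ranges and names. Up to 4 genes per related list are named by size of change, others where a sentence turns on them, chosen after their values were seen. The members and lists were chosen with earlier results of these data known. Promoters came from RefSeq (GRCh38.p14). Alternatives covered the authors' table, background correction, scaling, filters, 1 probe per gene, a replicate block, the variance prior, the arrays in the model and leaving out each array.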

Additional observations from a re-analysis of the deposited data

Results flagged for a closer look

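For 18 of the 47 histone probes the gefitinib effect in co-culture differed from that in monoculture by the interaction term of the limma model (Benjamini-Hochberg adjusted p under 0.05 over all probes, n = 3 arrays per group). Of all tested probes, 15.4% were called by this term, 7.2% higher and 8.24% lower. The difference, co-culture minus monoculture on the log2 scale, was 1.89 for H2BC9, 1.25 for H3C8 and 1.13 for H4C3. It was -2.0 for H2AC25 (adjusted p = 3.16e-05), -1.40 for H4C14 (adjusted p = 7.17e-04), -1.28 for H2AC6 (adjusted p = 0.00101), -1.25 for H2BC21 (adjusted p = 0.00597) and -1.04 for H4C5 (adjusted p = 9.97e-04), where 2 groups hold only bounds. H4C15 was at -0.76 (adjusted p = 0.00994) and H2AC19 at -0.82 (adjusted p = 0.0133). Probe ILMN_1758623 of H2BC5 was at -0.94 (adjusted p = 0.00685). These 11 probes kept their calls under every alternative, except H3C8.

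The remaining 7 calls each ended under at least 1 alternative, as that of H3C8 did without 10 of the arrays in turn or without the filter on dim probes. Probe ILMN_1651496 of H2BC5 was at -0.72 (-0.77 to -0.56 over the arrays whose omission ended the call), ILMN_1659047 of H2AC18 at -0.68 (-0.71 to -0.56), H2BC8 at -0.92 (-0.96 to -0.73), H4C8 at -0.69 (-0.70 to -0.60) and H3C6 at -0.97 (-1.05 to -0.75). For each of these 5 at least 8 different arrays ended the call when left out. Median scaling also ended the calls of ILMN_1651496 and ILMN_1659047, the replicate block those of H2BC8 and H4C8, and a trended robust prior that of H4C8. Dropping the filter on dim probes ended those of ILMN_1651496, H2BC8 and H3C6, and H3C6 also lost its call with the authors' table and without background correction. ILMN_1796179 of H2BC12 was at -0.54, and its call ended without gefitinib monoculture replicate 1 (-0.53) and with median scaling (-0.42, adjusted p = 0.175). H1-2 was at -0.69, and its call ended only with median scaling (-0.57). Groups of 3 arrays are too small for a test of single outlying arrays.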

How the results depend on the processing

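No alternative turned the direction of a called histone probe. For gefitinib in monoculture, 20 to 25 of the histone probes were called over the alternatives and 20 to 24 with 1 array left out, and 17 of the 24 calls were kept under all of them. Under gefitinib, co-culture against monoculture gave 25 to 28 and 25 to 29, and the interaction 14 to 21 and 12 to 17. For gefitinib in co-culture the histone count was 0 to 1 with 1 array left out. The count over all probes there was 212, and it was 385 with the authors' table, 389 without background correction, 421 with a trended robust prior, 49 with only the arrays compared and 114 to 183 with 1 array left out. For co-culture without drug the histone count of 2 became 5 with the authors' table, without background correction and with the trended prior, 1 with median scaling, 1 probe per gene, the replicate block or only the arrays compared, 0 without the filter on dim probes, and 0 to 2 with 1 array left out. Over all probes, 614 became 1158, 1160 and 1243 in the former 3 settings, 366 with median scaling, 240 with only the arrays compared and 220 to 601 with 1 array left out. The causes were not tested. Median scaling changed the split of all probes to 2033 up and 2883 down for gefitinib in monoculture (2751 and 2431 before), and to 247 and 119 for co-culture without drug (328 and 286 before). With 1 array left out, all probes ranged over 4263 to 5296, 5062 to 6027 and 2194 to 2555 for gefitinib in monoculture, co-culture under gefitinib and the interaction. Same-numbered arrays shared little deviation (18 pairs, r -0.0428 to 0.0969), and 36 pairs of different number ran from -0.141 to 0.0516. The highest values were for replicates 2 and 3 of co-culture with gefitinib co-culture (0.0947 and 0.0969), while replicate 1 gave the lowest of the same number. Such values cannot show whether the arrays were paired, so a fit with the numbers as a block is given too. A replicate block gave 23 histone calls for gefitinib in monoculture (17 up, 6 down), 0 for gefitinib in co-culture, 1 without drug, 27 under gefitinib and 18 for the interaction. Over all probes it gave 5083, 154, 421, 5922 and 2607. A slide block was not run, since no slide is given in the sources used here, and only the arrays compared was not run for the interaction, which uses all 12. Dim probes near background limit the smaller changes.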
